A study of Mus musculus with 9 samples.

Results

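The genes described here are 8 markers of the enteric nervous system, 3 of them carried mainly by enteric glia (Gfap, S100b and Sox10) and 5 mainly by enteric neurons (Elavl4, Ret, Nos1, Chat and Vip). They were taken by name from a table of 21720 genes, all 8 were found, and all 8 were among the 16160 genes abundant enough to be tested. The colon of wild-type C57BL/6J females was profiled by RNA-seq, with 3 libraries in each of 3 groups; the labels give no age. The Normal group was gavaged for 7 days with the vehicle, 0.5% CMC-Na (sodium carboxymethyl cellulose). The Model group received 5% DSS (dextran sulfate sodium, which damages the lining of the large bowel and is used to model ulcerative colitis) for 7 days. The Atorvastatin group received atorvastatin, a statin, at 10 mg/kg in 0.2 mL once daily on 5 days (the first was day 3, the last day 7). Whether those mice also had DSS is not said outright in the labels. The labels also leave unsaid whether 1 library stands for 1 mouse, so the p-values reflect library-to-library spread, part of which may be technical.

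The enteric nervous system is a network of neurons and glia in the gut wall, lying in a plexus between the muscle layers and another under the mucosa. Enteric glia resemble astrocytes of the brain: SOX10 is a transcription factor that maintains their identity, S100B is a calcium-binding protein, and GFAP is an intermediate filament protein whose level varies with the state of the glia. Among neurons, ELAVL4 (HuD) is an RNA-binding protein found broadly across enteric neurons, and RET is the receptor through which GDNF drives the formation of the enteric nervous system. NOS1 makes nitric oxide in inhibitory motor neurons, VIP is a peptide that relaxes muscle and drives secretion, and CHAT makes acetylcholine in excitatory neurons. Tuft cells of the epithelium also carry Chat.

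Proximal promoters, from RefSeq on GRCm38.p6, were matched for 6 of the 8 genes in 9 windows that run from 250 bases before a gene's start to 50 bases from it. Sox10 and Ret were not matched. The stretches of Gfap, the member with the largest fold change, and Vip, the most abundant per length, are shown because each holds a textbook motif, and both motifs were chosen with the sequences in view. Capitals mark a STAT-type motif (TTCNNNGAA, the same on both strands) in Gfap and the core of a cyclic AMP response element (TGACGTC, either strand) in Vip.
Gfap, chr11:102897191-102897290, minus strand: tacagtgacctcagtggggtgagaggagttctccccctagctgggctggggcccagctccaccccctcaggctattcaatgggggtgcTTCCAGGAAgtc
Vip, chr10:5639108-5639207, plus strand: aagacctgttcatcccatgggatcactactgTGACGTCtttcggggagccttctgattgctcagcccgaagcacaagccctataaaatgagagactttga
The STAT-type motif was in 1 of the 9 windows of the members, that of Gfap, and in 8.30% of 32851 windows of all genes. The TGACGTC motif was in 1 of the 9, that of Vip, and in 3.21% of all windows. The motifs do not overlap, and a match describes the letters only.

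Libraries held 72584333 to 91737502 estimated counts in total. About 4 estimated counts were taken to stand for 1 read pair, which is an inference from the small counts. Model 2 and Model 3 stood apart: 10 pancreatic acinar genes summed to 71629 CPM (counts scaled for depth, on TMM-scaled library sizes) in Model 2 and 29537 CPM in Model 3, against 43.5 to 2146 CPM in the other 7 libraries. Model 3 also held 272 CPM of 6 small intestinal genes, against at most 29.2 CPM elsewhere. Of these acinar genes none passed in edgeR's test (Cela1, adjusted p = 0.0895, and Clps, adjusted p = 0.167, had the smallest p), and of the small intestinal genes Fabp6 rose (adjusted p = 0.0291, and up to 0.132 without Normal 1, Normal 3 or Model 1; Apoa1, adjusted p = 0.0774). In sum, 10 epithelial genes had 14679 to 22619 CPM, and this list does not tell colon from small intestine. Of these genes Cdh1 (log2 fold change 0.41, adjusted p = 0.189) and Krt18 (log2 fold change -0.69, adjusted p = 0.136) came closest to passing between Model and Normal. Uchl1, a neuronal marker beyond the members, was present in every library.

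Per kilobase of exon, Vip had the highest level of the 8 genes in all 3 groups, with 9.66 ± 1.90 CPM per kb in Normal (mean ± SD, n = 3 libraries, as throughout), 13.7 ± 2.67 in Model and 11.2 ± 3.67 in Atorvastatin. In Normal, Ret came next at 1.69 ± 0.469 CPM per kb, and the other 6 genes lay close together, from 1.11 ± 0.0663 for Elavl4 to 0.798 ± 0.419 for Chat. Neighbours in that order among the 6 did not differ beyond their spread. In Model, Gfap moved from the sixth place to the second at 3.41 ± 1.51 CPM per kb, just above Ret at 2.93 ± 1.70 and within its spread. Chat was the lowest in all 3 groups, with 0.447 ± 0.247 CPM per kb in Model and 0.537 ± 0.276 in Atorvastatin.

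Model was compared with Normal to see what the enteric genes did under DSS. Gfap rose 3.76-fold, while its fellow glial markers S100b and Sox10 and the broad neuronal marker Elavl4 had fold changes close to 1. Nos1, Ret and Vip had positive log2 fold changes and Chat a negative one, and none of these 4 passed. At an unadjusted p under 0.05 were 2 of the 8 genes, Gfap and Nos1, where 20.9% of all tested genes were. After adjustment 1 of the 8 was called, in the higher direction, where 4.37% of all tested genes were called higher, 1.10% lower and 5.46% in either direction (adjusted p under 0.05, edgeR's quasi-likelihood test, Benjamini-Hochberg adjusted across every gene tested). In bulk RNA, fewer cells of a type and less RNA per cell cannot be told apart.

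**Figure D1:**
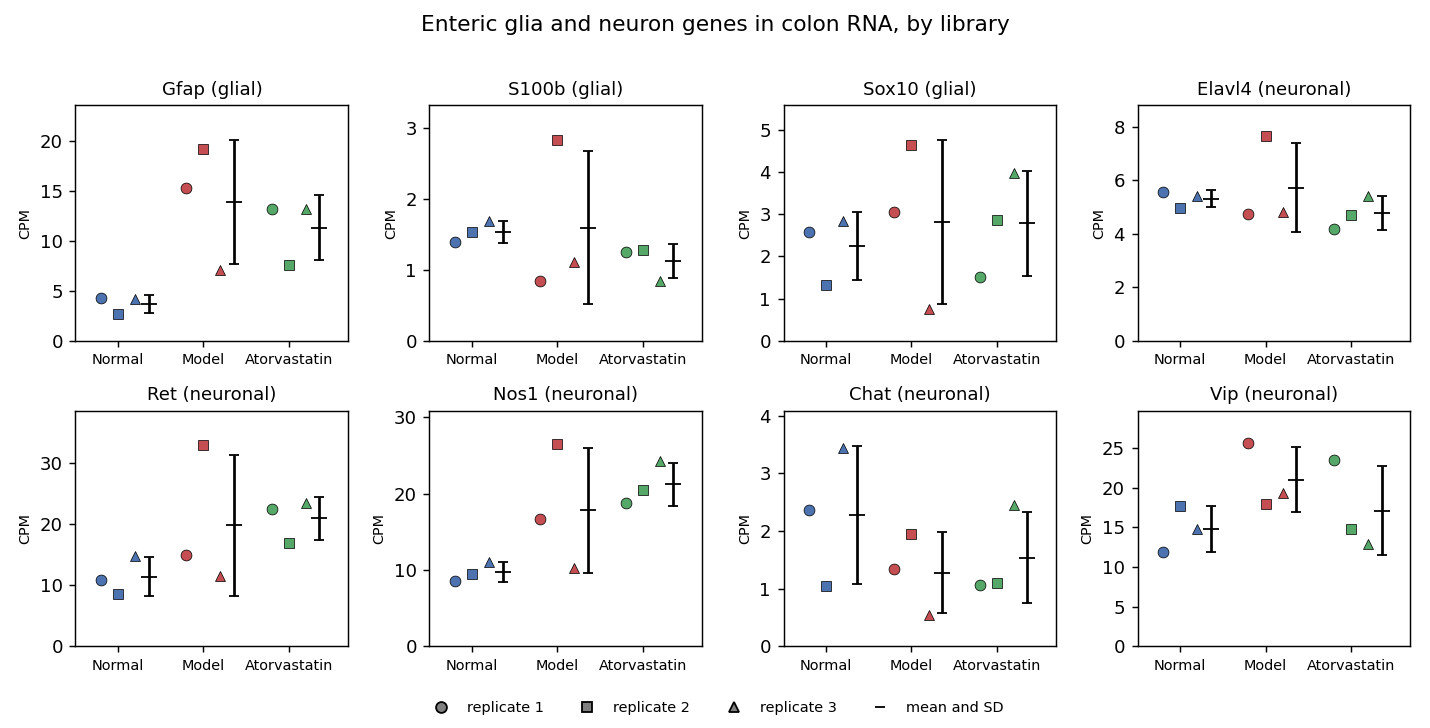
Level of each member gene in CPM (vertical axis, from 0) in the 9 libraries, by group; points are libraries, with the shape giving the replicate number, and the bar is the mean and SD of 3 libraries. Gfap lies between 2.64 and 4.29 CPM in Normal and above 7 CPM in every other library, while S100b, Sox10, Elavl4, Ret, Nos1 and Chat overlap between Normal and Model.

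Gfap had 4.29, 2.64 and 4.14 CPM in Normal 1 to 3, 15.3, 19.2 and 7.13 CPM in Model 1 to 3 and 13.2, 7.54 and 13.2 CPM in Atorvastatin 1 to 3. All 3 Model libraries were above all 3 Normal libraries, and Model 3 was the lowest of the Model group. The log2 fold change was 1.91 ± 0.39 (SE; 95% interval 1.04 to 2.79, adjusted p = 0.0274; chromosome 11, 102778162 to 102788026, in the authors' coordinates; the submitters' processing notes name mm39 for mouse). The call was lost, with adjusted p from 0.0672 to 0.0988, when Normal 1, Normal 2, Normal 3, Model 1 or Model 2 was left out, and it was 0.0513 with only the Normal and Model libraries in the fit. Without Model 3 the adjusted p was 0.00738, and without Model 2 and Model 3 together, which leaves 1 Model library assumed to vary like the other groups, it was 0.0365.

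S100b had 1.39, 1.53 and 1.70 CPM in Normal 1 to 3, 0.849, 2.84 and 1.11 CPM in Model 1 to 3 and 1.26, 1.28 and 0.848 CPM in Atorvastatin 1 to 3. Model 2 was the highest and Model 1 almost the lowest library of the series, so the groups overlapped (log2 fold change 0.056 ± 0.46, 95% interval -0.99 to 1.10, adjusted p = 0.963). Adipocytes also express S100b, and 7 adipocyte genes summed to 39.6, 164 and 60.7 CPM in Model 1 to 3 and to 194, 32.1 and 51.7 CPM in Normal 1 to 3. Both S100b and the adipocyte genes were highest among the Model libraries in Model 2, whereas in Normal 1, with the most adipocyte RNA, S100b was the lowest of its group; the part of adipocytes was not tested. Plin1 (adjusted p = 0.588) and Lep (adjusted p = 0.600) had the smallest p of the adipocyte genes.

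Sox10 had 2.57, 1.32 and 2.84 CPM in Normal 1 to 3, 3.04, 4.63 and 0.760 CPM in Model 1 to 3 and 1.50, 2.87 and 3.98 CPM in Atorvastatin 1 to 3. The Model libraries thus held both the highest and the lowest value of the series (log2 fold change 0.33 ± 0.61, 95% interval -1.06 to 1.71, adjusted p = 0.810). The value in Model 3 rests on about 13 read pairs, with an exact Poisson interval of 0.405 to 1.30 CPM (95%, counting error only, as for all such intervals here).

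Among 11 other glial genes, 10 were tested, and 1 rose in Model, 0 fell and 9 did not pass, with a median log2 fold change of 0.32 against 0.00 over all tested genes. The gene that rose was Gpm6b, which encodes a membrane proteolipid of glia and neurons, with 6.26, 6.05 and 3.74 CPM in Normal and 12.0, 18.0 and 9.86 CPM in Model 1 to 3 (log2 fold change 1.31 ± 0.29, adjusted p = 0.0349). Its groups did not overlap, and it lost the call without Normal 1, Normal 2, Normal 3, Model 1, Model 2, Atorvastatin 2, or Model 2 and Model 3 together, and with only the 2 groups compared (adjusted p up to 0.129 over all alternatives). Entpd2, an ectonucleotidase of enteric glia that breaks down ATP, was next (log2 fold change 0.46 ± 0.13, adjusted p = 0.0700), with all Model libraries (29.0 to 31.8 CPM) above all Normal ones (20.6 to 23.1 CPM). Erbb3, the neuregulin receptor of the glial lineage, was at 297 to 476 CPM, most of the summed level of the list, and epithelium is known to express it too (log2 fold change -0.03 ± 0.21, adjusted p = 0.957).

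Markers of myelinating Schwann cells were examined as a neighbouring cell type. Of the 6 Schwann cell genes none passed between Model and Normal in edgeR's test (Mbp, log2 fold change -0.34 ± 0.09, adjusted p = 0.0739; Pmp22, log2 fold change -1.13 ± 0.34, adjusted p = 0.0945). Both of these are also expressed outside nerve, and in sum the list had 435 to 870 CPM in Normal, 264 to 348 CPM in Model and 174 to 262 CPM in Atorvastatin, most of it Pmp22.

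Leukocyte RNA moved with Gfap across the groups: 8 leukocyte genes summed to 107 to 262 CPM in Normal, 355 to 409 CPM in Model and 227 to 342 CPM in Atorvastatin. Within groups, the order of libraries for the leukocyte sum and Gfap differed in Normal and Model and was the same in Atorvastatin. Model 2 had the highest Gfap and the lowest leukocyte sum of the Model group. In Model 4 of these 8 rose, namely the myeloid genes Itgam (adjusted p = 0.0192), Csf1r (adjusted p = 0.00431), Cd68 (adjusted p = 0.00574) and Csf3r (adjusted p = 0.00780). Itgam lost the call without Normal 1, Normal 2, Normal 3, Model 1, or Model 2 and Model 3 together (adjusted p up to 0.0880). The part of leukocyte influx in the Gfap result was not tested.

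Ratios of counts within a library do not depend on how libraries are scaled, and they show Gfap apart from its fellow glial genes. For Gfap over Sox10 the Normal libraries had 1.67, 2.01 and 1.46, the Model libraries 5.03, 4.15 and 9.38, and the Atorvastatin libraries 8.76, 2.63 and 3.32. Every Model and every Atorvastatin library was above every Normal library. The ratio of Gfap to S100b ran from 1.73 to 3.08 in Normal, from 6.42 to 18.0 in Model and from 5.88 to 15.6 in Atorvastatin, again without overlap with Normal. The ratio of S100b to Sox10, both markers of glial identity, overlapped between all groups: Normal spanned 0.541 to 1.16, Model 0.279 to 1.46 and Atorvastatin 0.213 to 0.838. These ratios are descriptions without a test, and they follow partly from the Gfap values above.

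**Figure D2:**
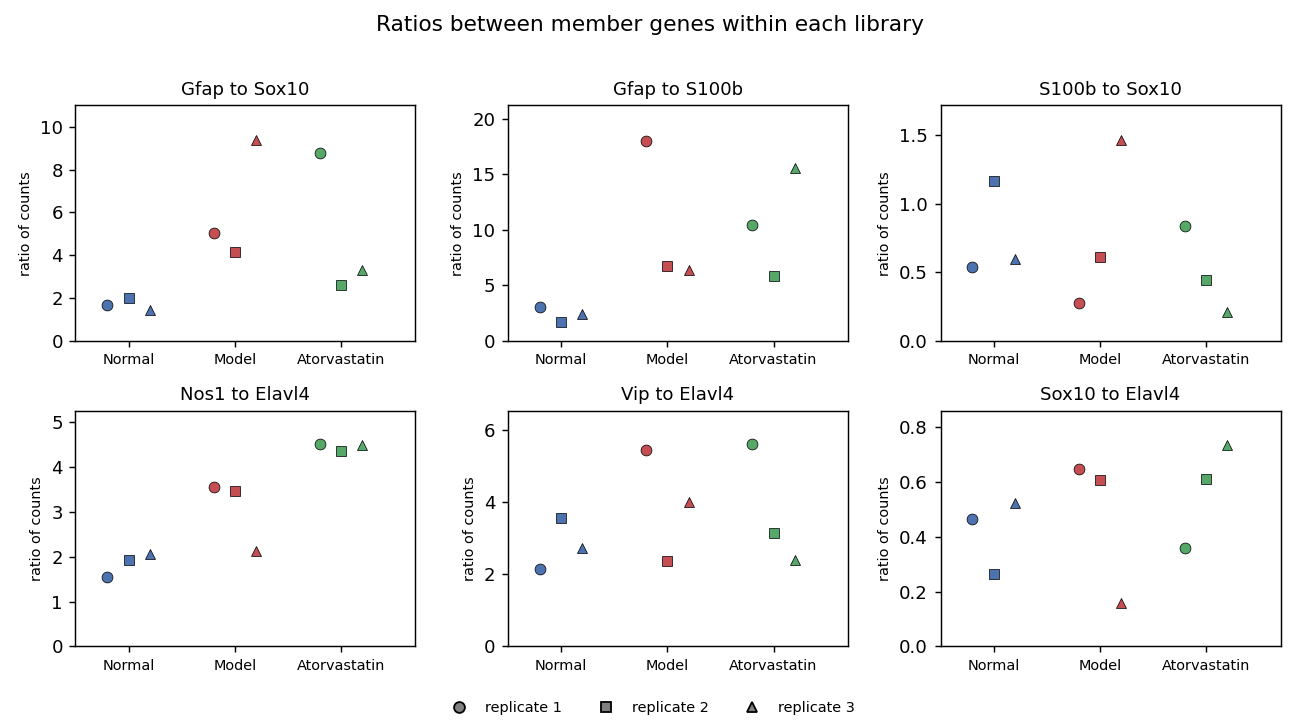
Ratio of the estimated counts of 2 member genes within each library (vertical axis, from 0), by group; points are libraries, with the shape giving the replicate number. Gfap to Sox10 is at most 2.01 in Normal and at least 2.63 elsewhere, and Nos1 to Elavl4 lies between 4.35 and 4.51 in all 3 Atorvastatin libraries.

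The broad neuronal marker Elavl4 varied least of the 8 genes. It had 5.55, 4.95 and 5.42 CPM in Normal 1 to 3, 4.72, 7.63 and 4.82 CPM in Model 1 to 3 and 4.17, 4.70 and 5.42 CPM in Atorvastatin 1 to 3. Model 2 alone stood above the rest, and the groups overlapped (log2 fold change 0.11 ± 0.24, adjusted p = 0.839). The 95% interval, -0.42 to 0.64, leaves room for changes of that size in either direction. Without Model 2 the log2 fold change was -0.15.

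Of 16 other genes of neuronal identity and neuronal structure, all tested, none passed in edgeR's test between Model and Normal, with a median log2 fold change of 0.35. The smallest p belonged to Map1b, a microtubule-associated protein of axons (log2 fold change 0.57 ± 0.18, adjusted p = 0.114). The synaptic genes Snap25 (log2 fold change 0.15 ± 0.22) and Syt1 (log2 fold change 0.058 ± 0.24) and the axonal gene Stmn2 (log2 fold change -0.08 ± 0.27) had fold changes near 1, as Elavl4 had.

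Model 2 and Model 3, the libraries with the most pancreatic RNA, stood out for the other neuronal genes, and Model 2 also for the members. Model 2 was the highest of the 9 libraries for 6 of the 8 members, all 3 glial ones among them, and for 12 of the 16 other neuronal genes. Model 3 was the lowest of the 9 for 10 of the 16 other neuronal genes. Among the members it was the lowest for 2 of the 8, Sox10 and Chat, as many as Normal 1 and Normal 2 had each, and among 10 other glial genes for 3, against 4 for Normal 3 and 3 for Normal 1. The smooth muscle genes, which mark the layers that house the main plexus, summed to 4804, 3624 and 2417 CPM in Model 1 to 3 and to 5794, 4099 and 5202 CPM in Normal 1 to 3. Model 3 therefore had the least muscle RNA of its group, while Model 2, with the highest neuronal values, lay between the others. Of these 12 muscle genes none passed between Model and Normal in edgeR's test (Synm, log2 fold change -0.95 ± 0.36, adjusted p = 0.172; Myh11, log2 fold change -0.75 ± 0.36, adjusted p = 0.283). The part that the share of muscle layer in a sample plays in the neuronal values was not tested. The insulin genes Ins1 and Ins2, markers of pancreatic islets, which also use neuronal genes, had 2.47 and 13.0 CPM in Model 2, 0.248 and 1.33 CPM in Model 3 and at most 0.0514 CPM elsewhere. Of the tested islet genes, Iapp (adjusted p = 0.0937) and Ppy (adjusted p = 0.570) did not pass.

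Nos1 had 8.54, 9.50 and 11.1 CPM in Normal 1 to 3, 16.7, 26.5 and 10.3 CPM in Model 1 to 3 and 18.8, 20.5 and 24.3 CPM in Atorvastatin 1 to 3. In Model, libraries 1 and 2 were above all Normal libraries and Model 3 was within them. The log2 fold change of Model against Normal was 0.88 ± 0.30 (adjusted p = 0.133), and without Model 3 it was 1.15 (adjusted p = 0.0245). The DESeq2 test also called Nos1 (adjusted p = 0.0473), and 1966 genes in all, where edgeR's test called 883.

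Relative to the broad marker, Nos1 over Elavl4 gave a ratio of 1.54, 1.92 and 2.05 for the Normal libraries, 3.54, 3.47 and 2.13 for the Model libraries and 4.51, 4.35 and 4.49 for the Atorvastatin libraries. All Atorvastatin libraries were above all Model libraries, and all Model libraries were above all Normal ones. The margin between Model 3 (2.13) and Normal 3 (2.05) was narrow. The ratio is a description without a test, and how often other gene pairs are ordered in this way was not examined. Nitric oxide acts on muscle through soluble guanylate cyclase, and its subunit genes had log2 fold changes of 0.36 ± 0.27 for Gucy1a1 (adjusted p = 0.495) and 0.50 ± 0.23 for Gucy1b1 (adjusted p = 0.264). Among the other nitric oxide targets listed, Prkg1 had a log2 fold change of -0.33 ± 0.26 (adjusted p = 0.516) and Pde5a one of 0.03 ± 0.10 (adjusted p = 0.893).

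Ret had 10.9, 8.51 and 14.8 CPM in Normal 1 to 3, 15.0, 32.9 and 11.5 CPM in Model 1 to 3 and 22.5, 17.0 and 23.4 CPM in Atorvastatin 1 to 3. Model 2 was the highest library, and Model 3 lay within the Normal range. The log2 fold change of Model against Normal was 0.80 ± 0.38 (95% interval -0.05 to 1.64, adjusted p = 0.267), and without Model 2 it was 0.22 (adjusted p = 0.716).

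Among 10 genes of the ligands and receptors around RET and the endothelin pathway, which also guides enteric progenitors, 1 rose in Model, 0 fell and 9 did not pass (median log2 fold change 0.08). The gene that rose was Ednrb, the endothelin B receptor, known in enteric neural crest derivatives and in vessels, with 5.15, 6.04 and 2.60 CPM in Normal 1 to 3 and 15.9, 17.8 and 17.3 CPM in Model 1 to 3, against 13.6, 8.65 and 14.8 CPM in Atorvastatin 1 to 3. The 3 Model libraries were close together and above all others (log2 fold change 1.89 ± 0.32, adjusted p = 0.0143, and 0.0874 without Model 2 and Model 3 together). Artn, a RET-family ligand that acts through GFRA3, was next (log2 fold change 1.42 ± 0.42, adjusted p = 0.0897). Gdnf itself had 1.89, 1.80 and 0.989 CPM in Normal and 1.98, 2.48 and 1.39 CPM in Model 1 to 3, with overlap (adjusted p = 0.654), and its coreceptor Gfra1 had a log2 fold change of 0.03 ± 0.36 (adjusted p = 0.974).

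Vip had 11.9, 17.7 and 14.8 CPM in Normal 1 to 3, 25.6, 18.0 and 19.3 CPM in Model 1 to 3 and 23.5, 14.8 and 13.0 CPM in Atorvastatin 1 to 3. All Model libraries were above all Normal libraries, by a narrow margin between Model 2 and Normal 2. The log2 fold change was 0.51 ± 0.26 (95% interval -0.07 to 1.08, adjusted p = 0.302). Such a lack of overlap held for 2 of the 8 genes, Gfap and Vip, both higher, and for 25.7% of all tested genes, 14.0% higher and 11.7% lower. Of its receptors, Vipr1, which is abundant in epithelium, had a log2 fold change of 0.17 ± 0.23 and Vipr2, found on muscle, one of 0.23 ± 0.44.

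Chat had 2.37, 1.04 and 3.43 CPM in Normal 1 to 3, 1.34, 1.95 and 0.541 CPM in Model 1 to 3 and 1.06, 1.10 and 2.45 CPM in Atorvastatin 1 to 3. The groups overlapped, with a log2 fold change of -0.83 ± 0.59 (95% interval -2.17 to 0.51, adjusted p = 0.471). The value in Model 3 rests on about 9 read pairs (exact Poisson interval 0.241 to 0.998 CPM). Slc18a3, the vesicular acetylcholine transporter, lies inside Chat in the authors' coordinates (32184395 to 32186807 within 32130160 to 32187946 on chromosome 14), so reads of the 2 genes may be split between them.

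Of the other cholinergic genes, Slc18a3 and Slc5a7 had fold changes of the opposite sign to Chat and Ache one of the same sign; none passed, and no difference between these genes was tested. Slc18a3 had 0.639, 1.70 and 2.20 CPM in Normal 1 to 3, 2.18, 4.15 and 1.23 CPM in Model 1 to 3 and 3.22, 2.58 and 5.49 CPM in Atorvastatin 1 to 3. Its log2 fold change in Model was positive, 0.73 ± 0.56 (adjusted p = 0.504), as was that of the choline transporter Slc5a7, 0.79 ± 0.33 (adjusted p = 0.211), whose Model libraries all lay above the Normal ones. Ache, which encodes the enzyme that breaks down acetylcholine, had a log2 fold change of -0.32 ± 0.24 (adjusted p = 0.489). Tuft cell genes, 8 in number, summed to 80.7, 46.7 and 83.0 CPM in Normal 1 to 3, 21.1, 50.3 and 22.4 CPM in Model 1 to 3 and 23.7, 34.5 and 51.6 CPM in Atorvastatin 1 to 3. Within each group the library with the highest Chat also had the highest tuft cell sum, and in Model the order of the other libraries differed. All 6 tested tuft cell genes had negative log2 fold changes (median -1.94), and none passed in edgeR's test (Pou2f3, log2 fold change -1.80 ± 0.58, adjusted p = 0.115; Trpm5, log2 fold change -2.20 ± 0.74, adjusted p = 0.128). The part of tuft cells in the Chat values was not tested.

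**Figure D3:**
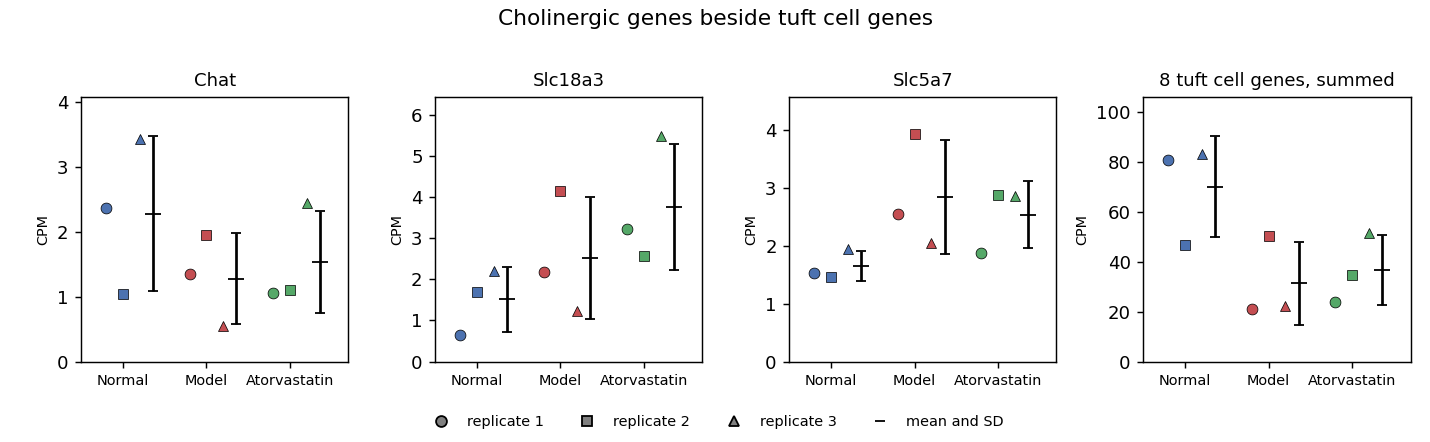
Level in CPM (vertical axis, from 0) of Chat, Slc18a3 and Slc5a7 and the summed CPM of 8 tuft cell genes, by group; points are libraries, with the shape giving the replicate number, and bars are the mean and SD of 3 libraries. Chat and the tuft cell genes have their highest values in Normal 3, whereas Slc18a3 is highest in Atorvastatin 3 and Slc5a7 in Model 2.

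Of 17 other transmitter and peptide genes 15 were tested, and 1 rose in Model, 0 fell and 14 did not pass (median log2 fold change 0.43). The gene that rose was Tac1, which encodes substance P and is used by excitatory enteric neurons, by sensory fibres and by some enteroendocrine cells. It had 7.64, 8.58 and 10.4 CPM in Normal 1 to 3, 42.5, 14.7 and 32.5 CPM in Model 1 to 3 and 16.6, 15.4 and 11.2 CPM in Atorvastatin 1 to 3. Model lay above Normal without overlap (log2 fold change 1.75 ± 0.35, adjusted p = 0.0261), and the call was lost without Normal 1, Normal 2, Normal 3 or Model 1 and with only the 2 groups compared (adjusted p up to 0.0893). Enteroendocrine genes summed to 592, 232 and 434 CPM in Model 1 to 3 and 239 to 390 CPM in Normal, so Model 1 and Model 3 were high and Model 2 low for both; their part was not tested. Of these 8 genes none passed in edgeR's test (Neurod1, adjusted p = 0.157; Pyy, adjusted p = 0.354).

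Of 10 receptors and nitric oxide targets on muscle and epithelium none passed between Model and Normal in edgeR's test (median log2 fold change 0.19). The muscarinic receptor gene Chrm3 had the smallest p (log2 fold change -1.83 ± 0.67, adjusted p = 0.156), followed by Adcyap1r1, the PACAP receptor (log2 fold change 0.91 ± 0.35, adjusted p = 0.170). None of 3 pacemaker cell genes, from the cells that link nerve and muscle, passed. Kit had a log2 fold change of -0.77 ± 0.27 (adjusted p = 0.145), Ano1 one of -0.16 ± 0.48 (adjusted p = 0.890) and Etv1 one of 0.04 ± 0.26 (adjusted p = 0.951).

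**Figure D4:**
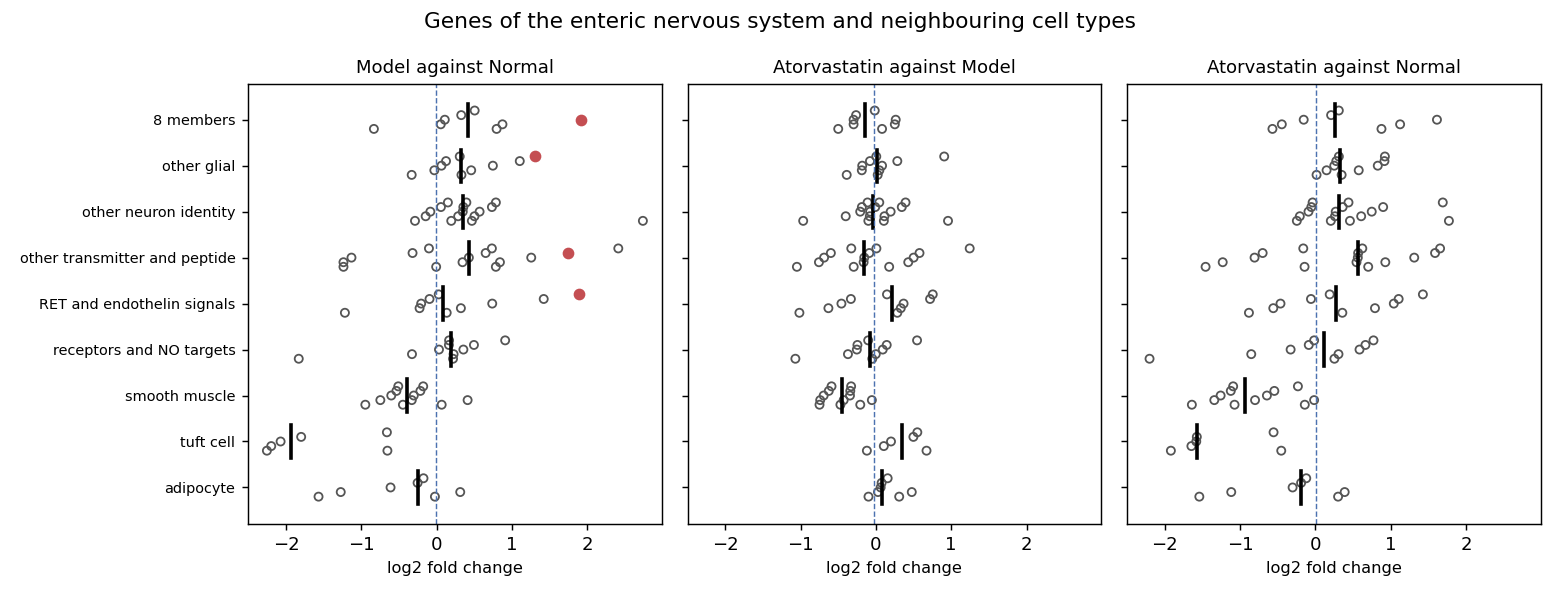
Log2 fold change of each tested gene (points) in the 3 comparisons, by list; filled points passed at an adjusted p under 0.05, black bars are list medians and the dashed line is the median over all tested genes. In Model against Normal the filled points are Gfap, Gpm6b, Tac1 and Ednrb, and no point is filled in the other comparisons among the lists drawn.

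Set side by side for Model against Normal, the 3 glial members had log2 fold changes from 0.056 to 1.91 (median 0.33) and the 5 neuronal members from -0.83 to 0.88 (median 0.51), where the median over all tested genes was 0.00. Glial and neuronal markers therefore overlapped in their fold changes, with Gfap above all neuronal members. The ratio of Sox10 to Elavl4, with 1 gene for each class, was 0.266 to 0.524 in Normal, 0.158 to 0.645 in Model and 0.360 to 0.733 in Atorvastatin, with overlap throughout. Whether this ratio follows the balance of glia and neurons was not tested.

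Atorvastatin was compared with Model to see whether the enteric genes differed under the statin, and none of the 8 passed the test. Over all genes edgeR's test called 0 of 16160 (0%), with 1908 at an unadjusted p under 0.05 and 321 called by the DESeq2 test. No member was at an unadjusted p under 0.05, where 11.8% of tested genes were. No member's groups were free of overlap, as those of 15.6% of tested genes were, 7.90% higher and 7.70% lower. Gfap had a log2 fold change of -0.30 ± 0.37 (adjusted p = 0.819) and a 95% interval of -1.14 to 0.55 (this comparison shares the Model libraries with the first). For the other members the log2 fold changes ran from -0.50 ± 0.47 for S100b to 0.26 ± 0.59 for Chat. The median was -0.30 over the 3 glial and 0.08 over the 5 neuronal members, against -0.03 over all tested genes.

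Among the other listed genes, Tac1 had a log2 fold change of -1.05 ± 0.34 (adjusted p = 0.334). Atorvastatin 1 and Atorvastatin 2 lay just above Model 2, so the groups overlapped. Gdnf had 3.73, 2.49 and 3.41 CPM in Atorvastatin 1 to 3, above all Model libraries by a margin that is small for Atorvastatin 2 (log2 fold change 0.72 ± 0.35, adjusted p = 0.464). For Chrm2, the muscarinic receptor typical of gut muscle, all Atorvastatin libraries (5.25 to 5.84 CPM) were below all Model libraries (8.65 to 15.9 CPM), without passing (log2 fold change -1.07 ± 0.30, adjusted p = 0.323).

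**Figure D5:**
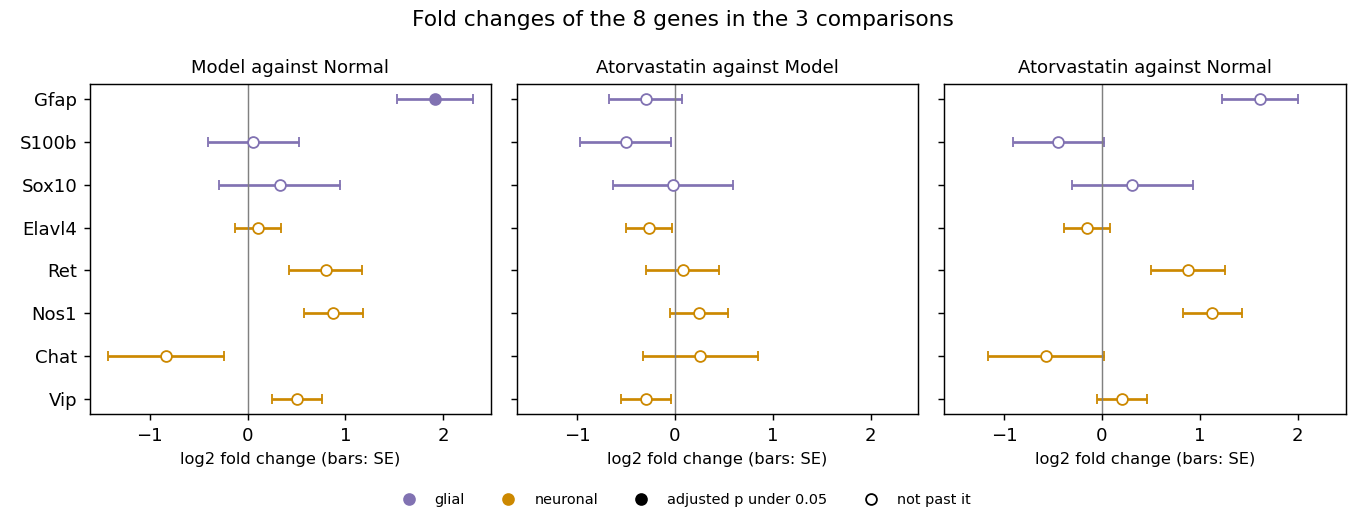
Log2 fold change of each member gene (horizontal axis) in the 3 comparisons, with the SE as bars; glial and neuronal genes are in different colours and filled points passed at an adjusted p under 0.05. Gfap in Model against Normal, at 1.91, is the 1 filled point.

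Atorvastatin was also compared with Normal; this comparison shares its libraries with the other 2. None of the 8 genes passed in edgeR's test, where 1.67% of all tested genes were called, 1.32% higher and 0.347% lower. At an unadjusted p under 0.05 were 3 of the 8, Gfap, Nos1 and Ret, against 15.2% of tested genes. The DESeq2 test called Gfap and Nos1, and 1056 genes in all, where edgeR's test called 270. Gfap had a log2 fold change of 1.62 ± 0.38 (adjusted p = 0.0796), Nos1 one of 1.13 ± 0.30 (adjusted p = 0.111) and Ret one of 0.88 ± 0.38 (adjusted p = 0.312). For these 3 genes all Atorvastatin libraries were above all Normal libraries, as they were for 13.5% of all tested genes. For S100b all Atorvastatin libraries were below all Normal libraries (log2 fold change -0.45 ± 0.47, adjusted p = 0.720), as they were for 11.2% of tested genes. Groups free of overlap in either direction were thus found for 4 of the 8 genes and for 24.7% of tested genes.

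The calls in the comparison of Atorvastatin with Normal differed between settings, and the cause was not tested. With Model 3 left out the adjusted p was 0.0310 for Gfap and 0.0347 for Nos1, without Model 2 it was 0.0719 and 0.0463, and with Model 2 and Model 3 both left out it was 0.0442 for Gfap and 0.0277 for Nos1. With only the Atorvastatin and Normal libraries in the fit it was 0.0458 for Gfap and 0.0290 for Nos1, and DESeq2 gave 0.00128 and 0.00919. The smooth muscle genes summed to 2169 to 3196 CPM in Atorvastatin, below every Normal library. All 12 had negative log2 fold changes, from -1.64 to -0.017, and none passed in edgeR's test. The part of the muscle share in the Gfap and Nos1 values was not tested. Among the other lists, all 10 tested glial genes had positive log2 fold changes and none passed, and Pmp22 fell (log2 fold change -1.70 ± 0.35, adjusted p = 0.0482, lost when any 1 of the 9 libraries was left out). Of the leukocyte genes, Csf1r, Cd68 and Csf3r rose here too (adjusted p = 0.0177, 0.0177 and 0.0210), and each lost the call without Normal 1 or Normal 3. Csf1r and Cd68 also lost it without Atorvastatin 3, and Cd68 and Csf3r without Atorvastatin 1.

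Across the 9 libraries the members did not move as 2 blocks. Pearson's r of log2 CPM, given as a description over libraries that share depth, composition and group, was -0.10 to 0.44 between the 3 glial genes, -0.56 to 0.91 between the 5 neuronal genes and -0.33 to 0.85 between genes of different classes. The closest pair was Ret with Nos1 (r = 0.91), and Gfap was closer to Nos1 (r = 0.85) and Ret (r = 0.85) than to Sox10 (r = 0.44) or S100b (r = -0.10). Against the wider lists, Gfap had a median r of 0.64 with 10 glial genes, closest to Gpm6b (r = 0.86), and one of 0.75 with 8 leukocyte genes, closest to Itgam (r = 0.88). Nos1 had a median of 0.62 with 16 neuronal genes. Sox10 had a median r of 0.78 with the neuronal genes, and was closest there to the neurofilament gene Nefm (r = 0.96). Chat had a median r of 0.69 with 6 tuft cell genes, closest to Avil (r = 0.93), 0.59 with 12 smooth muscle genes and 0.49 with 16 neuronal genes. Among the other transmitter genes Chat was closest to Grp (r = 0.93). The median r with the tuft cell genes was also positive for Elavl4 (0.50), S100b (0.45) and Sox10 (0.37). It was negative for Gfap (-0.56), Nos1 (-0.30), Ret (-0.12) and Vip (-0.82).

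Among 11324 tested genes with a mean of at least 5 CPM, those with the highest r were Elk3, Wnt5a and Cyyr1 for Gfap (each r = 0.98), Hilpda, Pde3a and Khdrbs3 for S100b (r = 0.88 to 0.90) and Pofut2 and Scarf2 for Sox10 (each r = 0.98). They were Mapk8ip3, Brsk1 and Hap1 for Elavl4 (r = 0.90 to 0.93), Gna12, Anks1 and Tenm3 for Ret (r = 0.94 to 0.96) and P3h1, Jade2 and Sdk1 for Nos1 (r = 0.96 to 0.97). For Chat they were Rbm15, Siah1a and Tnk1 (r = 0.96 to 0.97), and for Vip Steap2, Fgf7 and Rad54l2 (r = 0.90 to 0.94). The names are a description over these 9 libraries only.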

How the data were processed

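Each of the 9 colon libraries was made from 1.3 µg of RNA, per the labels' protocols. The table the authors deposited holds estimated counts as whole numbers, not normalized. The submitters' processing notes list bcl2fastq 2.0, HISAT2, StringTie, DESeq2 and the builds rn6 and mm39, without roles or order. Small counts favour multiples of 4 and the value just above: 4 occurs 1997 times, 5 occurs 1343 times and 1 occurs 346 times. The 4 counts per read pair were inferred from this, and the read pair numbers and Poisson intervals rest on it. With R 4.3.3 and edgeR 4.0.16, filterByExpr left 16160 genes, scaling was by TMM, and edgeR's quasi-likelihood fit used the 9 libraries together and no covariate beyond group, with two-sided tests and a threshold of 0.05 after Benjamini-Hochberg adjustment. The SE is the absolute log2 fold change divided by the square root of F. CPM were computed here, and log2 CPM for correlations used a prior count of 2. Exon lengths are unions of GENCODE M21 exons. The script was tested on simulated data. DESeq2 1.42.0, other scalings and filters, a replicate block and leaving out libraries were alternatives. Figures used Python 3.11.15 and matplotlib 3.10.9.

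The members, 16 further gene lists and tests were chosen with earlier results of these data known. Genes named are the 8 members; of each other list, those past the threshold and the 2 with the smallest p in Model against Normal; and the 3 genes most like each member; a few genes that this rule picks are not reported here. Other listed genes named, such as Erbb3, Uchl1, Snap25, Syt1, Stmn2, Gdnf, Gfra1, Slc18a3, Ache, Grp, Chrm2, Prkg1, Pde5a, Etv1 and the guanylate cyclase, VIP receptor and insulin genes, were picked with their values in view. Same-numbered libraries did not deviate together in every pair, so the numbers were not taken as pairs.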

Additional observations from a re-analysis of the deposited data

How the results depend on the processing

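Estimated counts over few read pairs limit Sox10, S100b and Chat most. Libraries of a group differed beyond counting in some cases, as for Sox10 in Model (0.760 to 4.63 CPM). In others they did not: S100b (1.39 to 1.70 CPM) and Elavl4 (4.95 to 5.55 CPM) in Normal lay within each Normal library's Poisson interval. The count of genes called in Model against Normal was 883, 1966 with the DESeq2 test, 474 with only the 2 groups compared, 476 without Model 2 and Model 3, and 164 to 1164 when 1 library was left out (164 without Normal 3). In Atorvastatin against Normal it was 270, 436 with library totals alone, 1056 with DESeq2 and 17 to 382 with 1 library left out (17 without Normal 3), and in Atorvastatin against Model it was 0, 321 with DESeq2 and 0 to 1 with 1 library left out. Library totals alone shifted the median of all genes to -0.10, 0.21 and 0.15 in Model against Normal, Atorvastatin against Model and Atorvastatin against Normal.

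The replicate number as a block gave 402 calls in Model against Normal, 104 in Atorvastatin against Normal and 0 in Atorvastatin against Model; the adjusted p in Model against Normal was then 0.0749 for Gfap, 0.0810 for Gpm6b, 0.0679 for Tac1 and 0.0714 for Fabp6, and in Atorvastatin against Normal 0.0717 for Pmp22 and 0.0623 for Csf1r, all 6 calls lost. Same-numbered libraries had correlations of deviations from -0.28 to 0.23, and other pairs from -0.23 to 0.26, so pairing was not supported by the data.

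Of the 408 values of members under 17 alternatives, 366 kept direction and side of the threshold, 7 lost the call (all Gfap in Model against Normal), 12 gained one and 23 changed sign, all 23 in values that did not pass. Sign changes in Model against Normal were S100b at -0.065 with library totals, -0.10 with the block and -0.86 without Model 2 and Model 3, and Elavl4 at -0.17 without both. In Atorvastatin against Model they were Sox10 at 0.21 with library totals, and S100b at 0.41 and Elavl4 at 0.014 without Model 2 and Model 3. With 1 library left out, the log2 fold changes ranged in Model against Normal from -0.65 to 0.36 (S100b), -0.23 to 0.77 (Sox10) and -0.15 to 0.23 (Elavl4). In Atorvastatin against Model they ranged from -0.61 to 0.0087 (Gfap), -0.81 to 0.21 (S100b), -0.46 to 0.54 (Sox10), -0.19 to 0.66 (Ret), -0.027 to 0.65 (Nos1) and -0.24 to 0.70 (Chat). In Atorvastatin against Normal they ranged from -0.042 to 0.62 (Sox10) and -0.085 to 0.37 (Vip). The neuronal median in Atorvastatin against Model was -0.19 to 0.65, the highest without Model 2. The cause was not tested.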
